A study of Homo sapiens with 2 samples.

Results

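Nuclear oxidative phosphorylation genes, which encode the chromosomally inherited subunits of respiratory complexes I to V and cytochrome c, were described in the RNA of 2 lung cancer cell lines. The members were chosen by gene symbol: names beginning with NDUFA, NDUFB, NDUFC, NDUFS or NDUFV and a number, SDHA to SDHD, names beginning with UQCR, COX4 to COX8 or ATP5, and CYC1 and CYCS. Of 94 matching symbols, 1 pseudogene and 3 antisense genes were left out, which left 90 members of 27685 listed genes. The members comprised 76 standard subunits (cytochrome c, CYCS, included), 6 paralogs used in particular tissues, 4 other paralogs, 2 factors that carry an ATP5 symbol and 2 readthrough genes that join a subunit gene to its neighbor. NDUFA4, which was named as a complex I subunit, was counted with complex IV, where its protein resides.

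The electron transport chain passes electrons from NADH through complex I and from succinate through complex II to ubiquinone, and then through complex III, cytochrome c and complex IV to oxygen. Complexes I, III and IV pump protons across the inner mitochondrial membrane, and complex V, the ATP synthase, uses the returning protons to make ATP. A few core subunits are encoded by mitochondrial DNA and were not among the members. All other subunits are encoded in the nucleus and imported, and complex II is the only complex made of nuclear subunits alone.

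The data comprised 1 RNA-seq library of H2087 cells and 1 of H596 cells, both untreated human lines labelled as lung adenocarcinoma and grown in the same medium with serum. Estimated read counts summed to 46961500 in H2087 and 55387847 in H596. Levels are in FPKM, which divides a count by transcript length and library size, so genes can be compared with each other within a library. Each value rests on 1 library. The spread between cultures is therefore unknown, no test between the lines was possible, and the 95% intervals given cover counting error only. In bulk RNA, fewer cells and less RNA per cell cannot be told apart.

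The labelled cell type was checked against marker genes. All 5 epithelial markers (EPCAM, CDH1, KRT8, KRT18 and KRT7) exceeded an FPKM of 1 in both libraries. The lung adenocarcinoma markers NKX2-1, NAPSA and SFTPB summed to 132 FPKM in H2087 and to 0.572 in H596. In H2087, NKX2-1 was at 110 FPKM and NAPSA at 21.9, but SFTPB was only at 0.123, from 22 counts. The squamous markers TP63, KRT5 and TRIM29 summed to 0.197 in H2087 and to 389 in H596. The H596 library therefore did not carry the adenocarcinoma markers of its label, and is called by its cell line name here. Summed stromal markers were 4.39 and 10.7 FPKM, with COL1A1 leading in H2087 and DCN in H596. Blood markers were detected only as CD68 (128 and 25.6), with PTPRC and CD3E at 0 counts in both libraries. Striated muscle markers summed to 0.0891 and 0.226, and germ cell markers to 0 and 0.0245. How far these marker differences bear on the subunit genes was not tested.

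All 76 standard subunits were well measured in both lines. The lowest count was 1457 in H2087 (NDUFB1) and 516 in H596 (NDUFV3), and the widest interval spanned 5.27% of its value to either side in H2087 and 9.01% in H596. Among the 90 members, 41 reached an FPKM of 100 in H2087, against 5.4% of the 13047 genes whose FPKM averaged at least 1 over the libraries (tested genes). In H596, 34 reached it, against 4.88% of tested genes. Of these, 31 reached 100 in both libraries, 10 in H2087 alone and 3 in H596 alone. Counting error left 1 member undecided in each library, ATP5G1 at 100.3 (95% interval, 96.7 to 104) in H2087 and NDUFS8 at 98.9 (96.0 to 101.8) in H596. The members held 2.33% of all summed FPKM in H2087 and 2.04% in H596. Over the 76 standard subunits, log2 FPKM in one line followed that in the other with a Pearson r of 0.848, a description across genes of 2 libraries. High subunits were thus mostly the same ones in both lines.

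**Figure D1:**
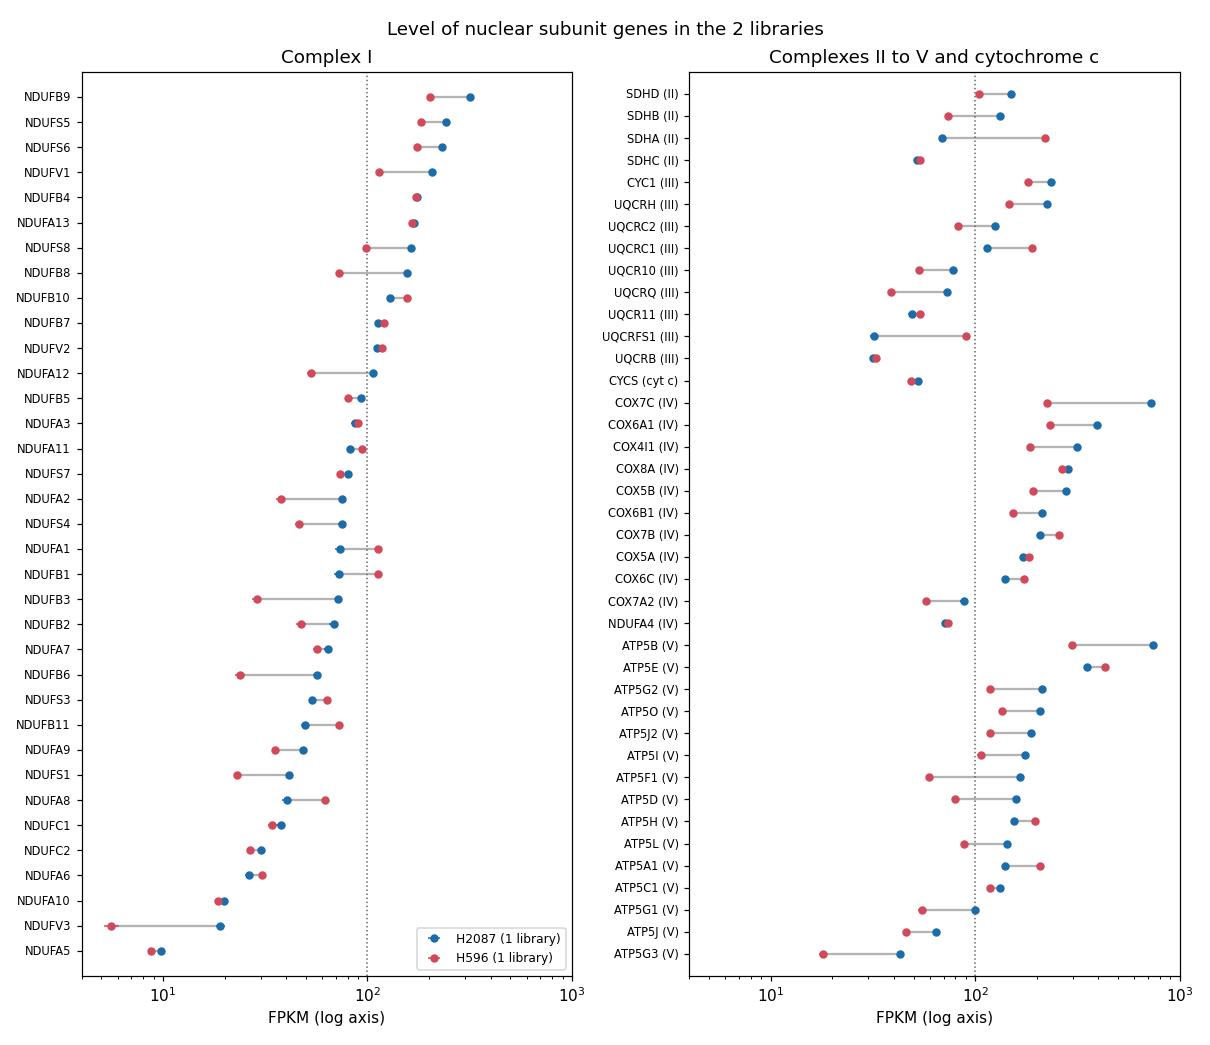
FPKM (log axis) of the standard subunit genes, 1 left out, in the H2087 library (blue) and the H596 library (red), with 95% counting intervals as horizontal bars and a dotted line at an FPKM of 100. Complex I is on the left, and complexes II to V with cytochrome c are on the right. Most red points lie to the left of the blue ones, SDHA and UQCRFS1 lie far to the right of theirs, and COX7C and ATP5B are the highest in H2087.

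For each gene, log2(FPKM + 1) in H2087 was subtracted from that in H596, and a difference of at least 1 in size, 2-fold on this scale, was the rule for naming a gene as higher or lower. Of the 81 members that passed the level filter, 2 were at least 2-fold higher in H596, against 18.2% of all 13047 tested genes. At least 2-fold lower were 8 members, against 14.2% of tested genes. At 2-fold, both shares were below those of all genes. At 1.5-fold, 7 members were higher, against 30.6% of tested genes, and 31 were lower, against 24%, so at this smaller size lower members were more frequent than lower genes in general. The higher members were SDHA and UQCRFS1, and the lower ones were COX7C, NDUFV3, ATP5F1, ATP5B, NDUFB3, ATP5G3, NDUFB6 and NDUFB8. The 9 members that did not pass were the 6 tissue-type paralogs, ATP5L2 and the readthrough genes.

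Small differences toward lower values in H596 were common among the members. The median difference was −0.39 (quartiles −0.71 and 0.09), while the median over all tested genes was 0.12 (quartiles −0.55 and 0.75). The members' differences had an SD of 0.64, against 1.31 over all tested genes. By counting error alone, the ratio of the libraries lay above 1 for 22 of the 76 standard subunits and below 1 for 50, and its interval held 1 for 4. The sign of a small difference depended on the scaling between libraries. With scaling by TMM, a normalization factor from the bulk of genes, the members' median was −0.51 against 0.00 for all genes. In TPM, which sets both libraries to 1 sum, it was −0.22 against 0.29. The gap between the members and all tested genes was −0.51, −0.51 and −0.50 under the 3 scalings. Scaling shifts members and other genes by nearly the same amount, so this gap could hardly change and the 3 values are not separate support. Of the standard subunits, 42 were lower in H596 under all 3 scalings, 17 were higher under all 3 and 17 changed sign, among them SDHC, CYCS, COX5A, COX8A, NDUFA4, NDUFV2, NDUFS7, UQCRB and ATP5C1. Members lower by 2-fold numbered 12 of 81 with TMM, against 16.3% of all genes compared. In TPM they numbered 7 of 82, against 13.9%, and NDUFB8 fell inside 2-fold. SDHA and UQCRFS1 were the 2 higher members with TMM, and ATP5SL, a factor with an ATP5 symbol, joined them in TPM. Over all genes, the higher and lower genes numbered 2066 and 2140 of 13100 with TMM (15.8% and 16.3%). In TPM they numbered 3589 and 2004 of 14445 (24.8% and 13.9%), and in FPKM 2376 and 1850 of 13047.

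Subunit genes are short and abundant, and both features moved with the difference in other genes too. The main transcripts of the standard subunits had a median length of 824.5 bases, against 2883 bases for tested genes. By length alone, the median difference under 1000 bases was −0.09 for other tested genes (n = 1142) and −0.49 for 46 members. At 1000 bases or more it was 0.14 (n = 11824) and −0.21 for 35 members. Among other tested genes averaging 50 to 200 FPKM, the median difference was −0.12 (n = 1180), against −0.27 for the 54 members in that range. Among those at 200 or more it was −0.52 (n = 261), against −0.46 for 12 members. The cytosolic ribosomal protein genes, with a median difference of −0.62, were kept among the other genes. Their median level was 917 FPKM in H2087 and 629 in H596. For other genes that were both under 1000 bases and between 50 and 200 FPKM, the median was −0.29 (n = 190), against −0.46 for 33 members. The gap between the members and other genes was therefore smaller among genes of like length and level, and at 200 FPKM or more the members were not the lower ones. Whether length or level sets these differences was not tested. In the range of 50 to 200 FPKM, 2 of 54 members were higher and 3 lower by 2-fold, against 13.3% and 17.1% of the other genes there. Between 10 and 50 FPKM, 0 of 11 members were higher and 3 lower, against 16.5% and 12.6% of other genes.

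Complex by complex, the median difference was −0.18 for the 36 genes of complex I, −0.23 for the 4 of complex II, −0.38 for the 9 of complex III, −0.46 for the 11 of complex IV and −0.71 for the 15 of complex V. With TMM the same medians were −0.30, −0.36, −0.51, −0.59 and −0.83. In TPM they were 0.00, −0.05, −0.20, −0.28 and −0.53, so the sign of complex I depended on the scaling. Scaling shifts all genes by nearly the same amount, so the order of the complexes could hardly change with it. The order did depend on single genes. Without COX7C, complex IV had a median of −0.27 in FPKM, above that of complex III. The spread within each complex was wider than the steps between neighboring complexes. Complex IV subunits had the highest median level, 211.6 FPKM in H2087 and 184.4 in H596. Complex V followed with 157.9 and 117.6, and complex I genes had medians of 74.9 and 71.6. Complex I, with the most subunits, nevertheless held the largest share of summed FPKM, at 0.74% in H2087 and 0.70% in H596.

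**Figure D2:**
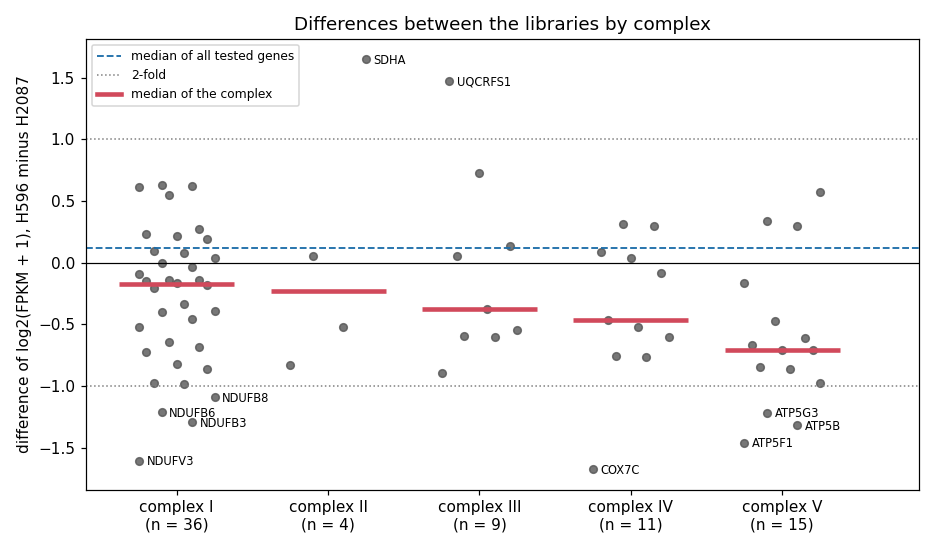
Difference in log2(FPKM + 1) (H596 minus H2087) for each standard subunit gene (points) by complex, with the median of the complex as a red bar, the median of all tested genes as a dashed line and 2-fold as dotted lines. The bars step down from −0.18 in complex I to −0.71 in complex V, and the points beyond the dotted lines are labelled.

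Complex II, succinate dehydrogenase, showed the widest divergence among its own subunits. SDHA (gene 6389, chr5:218338-257197 in hg19) encodes the flavoprotein that oxidizes succinate. Its level was 69.2 FPKM (67.8 to 70.6) from 9214 counts in H2087 and 219 (217 to 221) from 34633 counts in H596. The difference of 1.65 was the largest of any member in the higher direction, a 3.17-fold higher level (3.10 to 3.24). Its partner SDHB, the iron-sulfur subunit that carries the electrons onward, was at 132 FPKM in H2087 and 73.8 in H596, a difference of −0.83. The FPKM ratio of SDHA to SDHB was therefore 0.524 in H2087 and 2.97 in H596, although the proteins occur in equal numbers in the complex. The membrane anchors, which bind ubiquinone, moved little or in the direction of SDHB. SDHC was at 51.9 and 53.8 FPKM, the lowest of the complex in both lines. SDHD was at 150 and 104 FPKM, a difference of −0.52, and was the highest of the complex in H2087, while SDHA was the highest in H596.

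SDHA has listed pseudogenes, whose reads could be shared with it. SDHAP1 was at 7.61 and 12.8 FPKM, SDHAP2 at 5.36 and 7.62, and SDHAP3 at 7.06 and 8.59. Each was far below SDHA in both lines. How reads were divided among these copies is not given in the sources used here.

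In complex III, the cytochrome bc1 complex, UQCRFS1 stood apart. UQCRFS1 (gene 7386, chr19:29698167-29704136) encodes the Rieske iron-sulfur protein, which takes electrons from ubiquinol. Its level was 31.9 FPKM (30.4 to 33.3) in H2087 and 90.3 (88.1 to 92.5) in H596, a difference of 1.47 and a 2.83-fold higher level (2.69 to 2.99). Cytochrome c1, encoded by CYC1 and next in the electron path, was at 236 and 181 FPKM, a difference of −0.38. The CYC1 level was 7.40 times that of UQCRFS1 in H2087 and 2.01 times in H596. The core proteins, which hold the complex together on its matrix side, parted from each other as well. UQCRC1 was at 114 FPKM in H2087 and 190.3 in H596 (difference 0.73), while UQCRC2 was at 124 and 82.0 (difference −0.60). Their ratio was 0.919 in H2087 and 2.32 in H596. CYC1 was the highest gene of the complex in H2087 and UQCRC1 in H596. The 5 small subunits had a median difference of −0.54, and UQCRB was the lowest gene of the complex in both lines, at 31.5 and 32.7 FPKM, although in H2087 its interval (30.8 to 32.2) overlapped that of UQCRFS1. CYCS, which encodes the mobile carrier cytochrome c, was at 52.7 and 48.5 FPKM, and its difference of −0.12 turned positive in TPM.

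The promoters of the 4 members with the largest differences in size are shown because subunit genes are known targets of a few factors, including NRF1 (nuclear respiratory factor 1), ETS factors such as GABPA, YY1 and ESRRA. The sequences are the 150 bases before the annotated start, from RefSeq on GRCh38.p14, read on the strand of the gene from 5′ to 3′. They are reference sequences and were not read from these cells. In SDHA (chr5:218170-218319, plus strand) and UQCRFS1 (chr19:29213152-29213301, minus strand), capitals mark matches to GCGCANGCG on either strand, letters chosen for NRF1.
SDHA: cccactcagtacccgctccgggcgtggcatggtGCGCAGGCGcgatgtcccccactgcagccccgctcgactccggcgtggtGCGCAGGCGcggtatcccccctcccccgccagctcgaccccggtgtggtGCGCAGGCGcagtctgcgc
UQCRFS1: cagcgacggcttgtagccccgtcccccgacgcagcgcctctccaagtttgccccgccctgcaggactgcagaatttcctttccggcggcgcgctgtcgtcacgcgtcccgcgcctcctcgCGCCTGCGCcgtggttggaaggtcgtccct
SDHB, the partner of SDHA with the opposite sign, is shown for comparison (chr1:17054033-17054182, minus strand). Its 150 bases held no match to any motif searched.
SDHB: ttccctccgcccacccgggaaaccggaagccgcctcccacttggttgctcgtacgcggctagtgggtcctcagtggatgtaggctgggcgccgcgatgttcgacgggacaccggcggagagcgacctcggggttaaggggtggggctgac
In COX7C, the member with the largest lower difference (chr5:86617791-86617940, plus strand), capitals mark matches to CTACANTTC, letters chosen for ZNF143.
COX7C: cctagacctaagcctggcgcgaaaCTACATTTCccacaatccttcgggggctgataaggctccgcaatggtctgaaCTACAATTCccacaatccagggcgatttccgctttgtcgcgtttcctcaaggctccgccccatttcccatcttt
NDUFV3, the member with the next largest lower difference (chr21:42893159-42893308, plus strand), held no match to any motif searched in its 150 bases.
NDUFV3: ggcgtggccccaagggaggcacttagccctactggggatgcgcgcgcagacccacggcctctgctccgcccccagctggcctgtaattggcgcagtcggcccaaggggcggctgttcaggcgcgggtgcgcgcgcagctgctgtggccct
The SDHA matches began 117, 68 and 19 bases before the start, the UQCRFS1 match 30 bases before it, on the other strand, and the COX7C matches 126 and 74 bases before it. The letters for NRF1 were found in promoters of lower subunits too, such as NDUFA12 (difference −0.99) and ATP5G2 (−0.85), and of other higher ones, such as UQCRC1 (0.73). Whether a match goes with the direction of a difference was not tested.

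Across the family, promoters could be matched for 63 of the standard subunits, each 250 bases before to 50 bases after the start, and both strands were searched. GCGCANGCG was found in 20 of the 63 (31.7%), against 8.05% of all 27305 listed promoters. CCGGAAGT, for ETS factors, was found in 9 (14.3%, against 4.44%), and AAGATGGC, for YY1, in 11 (17.5%, against 3.03%). TCAAGGTCA, for ESRRA, was found in 1 (1.59%, against 0.359%), and CTACANTTC in 3 (4.76%, against 1.47%). At least 1 of the 5 motifs stood in 34 (54.0%), against 15.6% of all promoters. The letters for NRF1 and ZNF143 were chosen after promoters of members had been seen. The subunit promoters were also somewhat richer in G and C, with a median of 61% against 58.3%, and the part of base composition in the motif shares was not tested. A match is a description of letters and says nothing of binding.

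Complex IV, cytochrome c oxidase, gives electrons to oxygen. Its nuclear subunits surround a catalytic core that is encoded in the mitochondrion. COX7C (gene 1350, chr5:85913784-85916583), a small membrane subunit, was at 723 FPKM (711 to 735) in H2087 and 226 (220 to 232) in H596. The difference of −1.67 was the largest of any member in the lower direction, a 3.20-fold lower level (3.10 to 3.31). COX7C was the highest gene of the complex in H2087, at 2.31 times the level of COX4I1, and stood at 1.22 times that level in H596. Without COX7C, the median difference of the complex was −0.27. COX4I1, the regulatory subunit that binds ATP, was at 313 and 184 FPKM (difference −0.76), and COX6A1, a small membrane subunit, at 393 and 232 (difference −0.76). COX5B, a zinc-binding matrix subunit, was at 277 and 193 (difference −0.52), while COX5A, its neighbor on the matrix side, was at 171 and 182 (difference 0.09). COX8A was the highest in H596 at 267 FPKM, against 283 in H2087. COX7B and COX6C were higher in H596, with differences of 0.30 and 0.31 from 208 and 139 FPKM in H2087. The lowest gene was NDUFA4 in H2087 (71.5 FPKM) and COX7A2 in H596 (57.5 FPKM). Subunits of 1 enzyme thus differed between the lines by −1.67 to 0.31.

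Complex V had the lowest median, and 12 of its 15 genes were below 0. ATP5B (gene 506, chr12:57031959-57039852) encodes the catalytic beta subunit. It was the highest of all members in H2087 at 741 FPKM (735 to 747) and stood at 297 (293 to 300.1) in H596, a difference of −1.32 and a 2.50-fold lower level. ATP5A1, the alpha subunit that alternates with beta in the F1 head, was at 139 FPKM in H2087 and 208 in H596, a difference of 0.57. The proteins are present in equal numbers, whereas ATP5B exceeded ATP5A1 in FPKM by 5.33 times in H2087 and by 1.43 times in H596. Among the other genes of the head and central stalk, ATP5C1 (gamma) was at 132 and 118 FPKM, ATP5D (delta) at 158 and 79.9, and ATP5E (epsilon) at 351 and 432, the highest of the members in H596. ATP5D, with a difference of −0.97, lay just inside 2-fold.

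The peripheral stalk holds the head still while the ring of c subunits turns in the membrane. ATP5F1 (gene 515, chr1:111991743-112004525), the b subunit of the stalk, was at 166 FPKM (163 to 168) in H2087 and 59.5 (58.2 to 60.9) in H596, a difference of −1.46 and a 2.78-fold lower level (2.70 to 2.86). WDR77 overlaps ATP5F1 and was at 30.4 and 29.9 FPKM. Of the 7 genes of the stalk and the membrane part, only ATP5H (d) was positive, at 155 and 195 FPKM. Identical c subunits come from 3 genes that differ in the peptide removed after import. ATP5G1 was at 100.3 and 54.7 FPKM, ATP5G2 at 213 and 118, and ATP5G3 (gene 518, chr2:176040986-176046490) at 43.0 (41.9 to 44.1) and 17.9 (17.3 to 18.6). All 3 were lower in H596 under each scaling, and only ATP5G3, with a difference of −1.22 and a 2.40-fold lower level, passed 2-fold. Their summed FPKM was 357 in H2087 and 191 in H596, while the shares within the sum stayed close. ATP5G2 gave 59.8% and 61.9%, ATP5G1 gave 28.1% and 28.7%, and ATP5G3, the lowest gene of the complex in both lines, gave 12.1% and 9.39%.

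Complex I, NADH dehydrogenase, is the largest complex, and 11 of its 36 genes were positive and 25 negative. Of its 7 nuclear core subunits, which bind the flavin and the iron-sulfur clusters, none passed 2-fold. NDUFV1, the flavin-binding subunit that accepts electrons from NADH, was at 207 FPKM in H2087 and 113 in H596 (difference −0.86). NDUFS1, the largest iron-sulfur subunit, was at 41.4 and 22.9 (difference −0.83), and NDUFS8, which carries iron-sulfur clusters near the end of the chain, was at 164 and 98.9 (difference −0.72). NDUFS7, which lies at the ubiquinone site, was at 80.7 and 73.3 FPKM. NDUFV2 was at 112 and 118 FPKM, and NDUFS3 at 53.6 and 63.1. NDUFV1 and its direct partner NDUFV2 therefore parted, with differences of −0.86 and 0.08.

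The other complex I subunits have no part in electron transfer and assist assembly or stability. The 9 in the matrix arm had a median difference of −0.45, with 1 positive, and the 20 in the membrane arm −0.06, with 8 positive. In TPM these medians were −0.28 and 0.12, so the membrane arm changed sign with the scaling. NDUFV3 (gene 4731, chr21:44313378-44329773), a small subunit beside NDUFV1 and NDUFV2, was at 19.0 FPKM (18.1 to 20.03) in H2087 and 5.58 (5.12 to 6.09) in H596, the lowest of the standard subunits there. Its difference of −1.61 corresponded to a 3.41-fold lower level (3.08 to 3.78). The other 3 complex I genes lower by 2-fold were in the membrane arm. NDUFB3 (gene 4709, chr2:201936462-201950473) was at 71.9 and 28.7 FPKM, NDUFB6 (gene 4712, chr9:32553524-32573182) at 56.5 and 23.8, and NDUFB8 (gene 4714, chr10:102283486-102289680) at 156 and 72.7. Their levels were lower by 2.51-fold, 2.37-fold and 2.14-fold. NDUFA12 (difference −0.99) and NDUFA2 (difference −0.98) lay just inside 2-fold. In the other direction, NDUFB1 was at 72.5 and 113 FPKM, NDUFA1 at 73.1 and 113, and NDUFA8 at 40.2 and 62.2, each with a difference between 0.62 and 0.63. NDUFB9 was the highest gene of the complex in both lines, at 316 and 202 FPKM. NDUFA5 was the lowest in H2087 at 9.79 FPKM, with a main transcript of 5581 bases, the longest of the family.

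The paralogs used in particular tissues were close to absent in both lines. COX4I2, COX6A2, COX7A1 and COX8C, known from lung, muscle or testis, had 0 counts in both libraries. A count of 0 allows up to 3 counts, which would be an FPKM of at most 0.142 for any of them in H2087 and 0.120 in H596. COX6B2, a testis form, had 16 counts in H2087 and 5 in H596, or 0.0947% and 0.0345% of its summed FPKM with COX6B1. COX7B2 had 0 counts in H2087 and 2 in H596. Both cultures therefore used the widespread form at each of these 6 positions as far as this depth could show. COX4I2 is best known from lung tissue, and at 0 counts it was at most 0.0915 FPKM in H2087 and 0.0773 in H596.

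Among the other paralogs, NDUFA4L2, which is induced by low oxygen in many cells, was at 1.76 and 2.05 FPKM, against 71.5 and 73.5 for NDUFA4. UQCRHL, an intronless copy of UQCRH whose reads may be shared with it, was at 2.78 and 1.35 FPKM. ATP5L2 had 1 count in H2087 and 0 in H596. COX7A2L, which encodes a factor that joins complexes III and IV into supercomplexes, was at 114 and 69.7 FPKM, a difference of −0.71. ATP5S was at 7.90 and 5.75 FPKM and ATP5SL at 13.7 and 25.1, a difference of 0.83. The readthrough genes ATP5J2-PTCD1 and NDUFC2-KCTD14 were at 1.08 and 0.301 and at 0.595 and 0.113 FPKM.

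The differences of the members were set beside those of the genes around them. For each standard subunit, the median difference of up to 20 tested genes on either side was taken. Over the 76 subunits, a subunit's difference and its neighbors' median had a Pearson r of 0.658, and over 12965 other tested genes r was 0.306. These are descriptions across genes of 2 libraries, and close members share neighbors. The sign was the same in 53 of 76 (69.7%), against 65.0% of other genes. Subtracting the neighbors' median took the SD of the subunits' differences from 0.640 to 0.483. The median difference after subtraction was −0.41, against 0.01 for other tested genes, and 61 of 76 subunits were below their neighbors. The spread among the subunits was thus smaller relative to their neighbors, and their low median was as large.

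Of the 10 members beyond 2-fold, 8 had neighbors with the same sign, and 4 remained beyond 2-fold after subtraction. SDHA lies near the end of the short arm of chromosome 5, where 16 of its 22 neighbors were higher in H596 with a median of 0.75, and its own difference was 0.90 above theirs. NDUFS6, on the same arm, was at −0.39 while its neighbors had a median of 0.59. COX7C, on the long arm of chromosome 5, had 34 of 40 neighbors lower in H596, with a median of −0.68. The neighbors of ATP5F1, ATP5B, NDUFB3 and NDUFB8 had medians from −0.66 to −0.47. Among the standard subunits, the genes that stood farthest from their surroundings were NDUFV3 (−1.86 after subtraction), NDUFB6 (−1.32), SDHB (−1.18), UQCRH (−1.17) and UQCRFS1 (1.11), followed by ATP5G3 (−1.10). SDHB and UQCRH, both on chromosome 1, were within 2-fold themselves, but their neighbors were higher in H596, with medians of 0.35 and 0.57. By chromosome, the 3 subunits on chromosome X (NDUFA1, NDUFB11 and COX7B) had differences from 0.30 to 0.62, and the 5 on chromosome 12 had differences from −1.32 to −0.45.

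**Figure D3:**
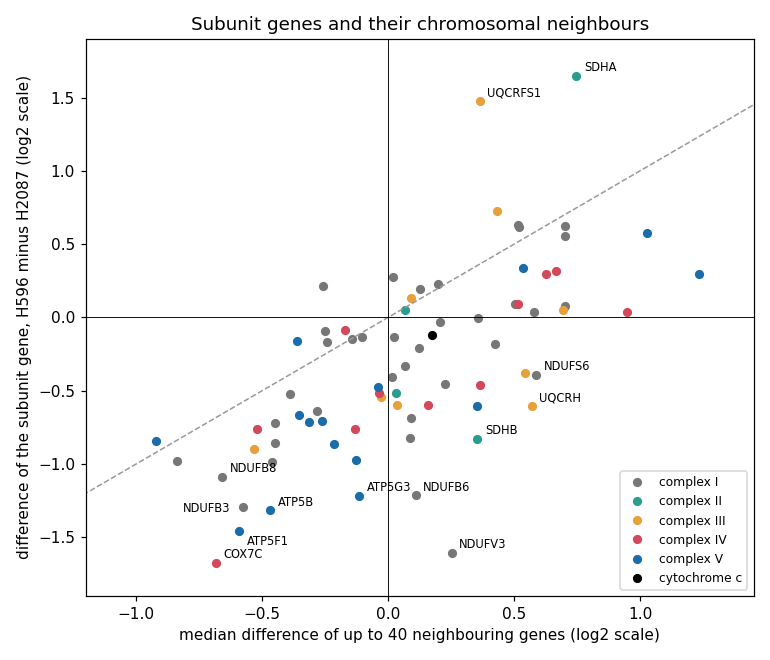
Difference of each of the 76 standard subunit genes (vertical axis, log2 scale, H596 minus H2087) against the median difference of up to 40 genes beside it on the chromosome (horizontal axis), colored by complex. The dashed line marks equal values. Of the points, 61 lie below it, and SDHA and UQCRFS1 lie above it at the top.

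Transcript use was mostly shared among the members, and the same counts for other genes are not given here. Of 76 members with an FPKM of at least 10 in both lines, 41 had more than 1 listed transcript, and 37 of these had the same leading transcript in both. The largest change in a transcript's share of its gene was under 10 percentage points in 31 genes and at least 20 points in 5. In NDUFA10, a membrane-arm subunit of complex I, NM_004544 held 34.8% of the gene in H2087 and 74.5% in H596, while the gene was at 19.8 and 18.5 FPKM. In NDUFC1, another such subunit, NM_001184987 held 33.1% and 68.0%, and it replaced NM_001184991 (43.8% and 24.9%) as the leading transcript. In NDUFS5, NM_004552 held 56.4% and 34.0%, and NM_001184979 held the rest. In SDHD, NM_003002 held 75.6% and 95.7%, and NM_001276506 22.3% and 3.67%. In ATP5SL, NM_018035 held 73.2% and 52.9%. These shares come from an estimate that divides reads among overlapping transcripts, and no interval for them could be computed from the tables.

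**Figure D4:**
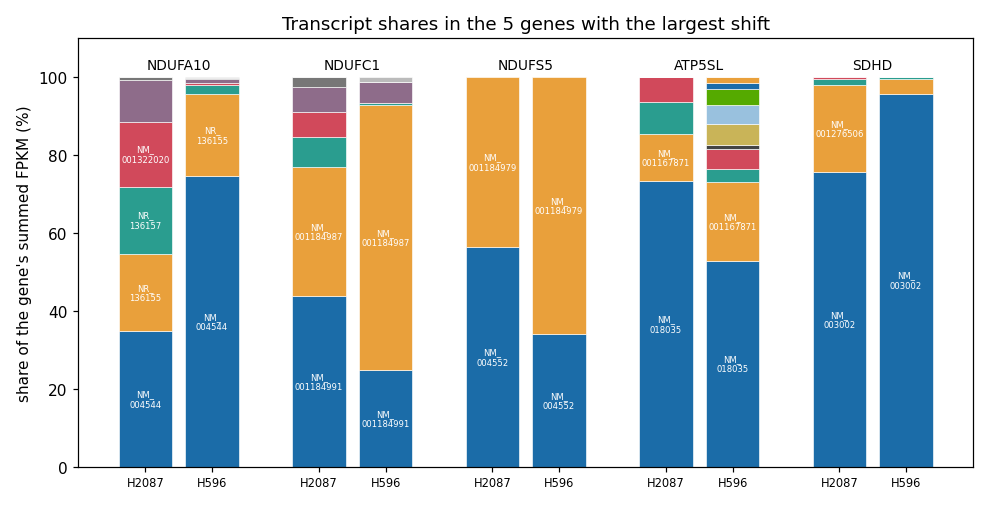
Share of each listed transcript in its gene's summed FPKM (%, stacked bars) in each library for the 5 members with the largest shift. The blue segment of NDUFA10 grows from 34.8% in H2087 to 74.5% in H596, and the leading segment changes in NDUFC1 and NDUFS5.

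Other genes of the pathway were taken from written lists. The 4 genes listed as other subunits outside the naming rule, NDUFAB1, C14orf2, USMG5 and ATPIF1, had a median difference of −0.94. ATPIF1, an inhibitor of the ATP synthase and not a subunit of it, was the only positive one, at 135 and 156 FPKM (difference 0.21). USMG5 (198 and 71.3 FPKM, difference −1.46) and C14orf2 (103 and 43.0, difference −1.24), both small membrane subunits of the ATP synthase, were lower by 2-fold. Of 50 assembly factors, 1 was higher (2%) and 7 were lower (14%), against 18.2% and 14.2% of all tested genes, and the median was −0.21. The higher and lower factors numbered 0 and 10 with TMM, against 15.8% and 16.3% of all genes. In TPM they numbered 4 and 4, against 24.8% and 13.9%. By the complex they serve, the medians were −0.03 for complex I (15 genes), −0.11 for II (4), −0.29 for III (6), −0.21 for IV (21) and 0.25 for V (4), and those for I and II turned positive in TPM. NDUFAF2, which helps build the matrix arm of complex I, was at 82.5 and 21.9 FPKM (difference −1.87). TMEM126B, which helps build its membrane arm, was at 80.0 and 31.5 (difference −1.32), and FOXRED1 and NUBPL, also complex I factors, had differences of −1.06 and −1.05, both within 2-fold in TPM. ECSIT, a partner of TMEM126B in the same assembly complex, was higher, at 10.4 and 22.3 FPKM (difference 1.04, within 2-fold with TMM). BCS1L, which inserts the Rieske protein into complex III, was at 35.0 and 14.7 FPKM, opposite in sign to UQCRFS1. LRPPRC, which stabilizes mitochondrial messenger RNAs, was at 89.1 and 36.5, and TMEM70, which assists the c ring, at 32.3 and 14.6 (differences −1.26 and −1.09, the latter within 2-fold in TPM).

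Of 16 electron carriers and dehydrogenases that feed the chain, 2 were higher (12.5%) and 3 were lower (18.8%). These shares stood against 18.2% and 14.2% of all tested genes, and the median was −0.25. PRODH, which oxidizes proline, was at 1.92 and 12.8 FPKM (difference 2.24), and ETFDH, which passes electrons from fatty acid oxidation to ubiquinone, at 3.92 and 9.14 (difference 1.04, within 2-fold with TMM). PDSS1, which makes the side chain of ubiquinone, was at 34.6 and 2.08 FPKM (difference −3.53), DHODH, of pyrimidine synthesis, at 12.7 and 3.12 (difference −1.73), and CHDH, which oxidizes choline, at 3.56 and 0.0095 from 2 counts (difference −2.18). These enzymes therefore included larger differences than any subunit. Among 14 tested regulators of mitochondrial biogenesis, 4 were positive and 10 negative with a median of −0.47. Only MYC passed 2-fold, at 225 and 39.5 FPKM (difference −2.48), so 7.14% were lower, against 14.2% of all tested genes. With TMM, 4 were lower, against 16.3% of all genes. For comparison, 78 mitochondrial ribosomal protein genes had a median of −0.29 with 1 higher and 11 lower (14.1%), and 81 cytosolic ribosomal protein genes had a median of −0.62 with 0 higher and 24 lower (29.6%). Against the 14.2% of all tested genes, lower genes were thus as frequent in the mitochondrial ribosomal set and more frequent in the cytosolic one. The medians of both ribosomal sets, of the assembly factors together, of the electron carriers and of the regulators were below 0 under each of the 3 scalings, as was that of the members.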

How the data were processed

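RNA-seq data of 1 untreated H2087 library and 1 untreated H596 library were used. The authors made stranded mRNA libraries for Illumina sequencing, aligned the reads to hg19 with HISAT2 2.0.5 and estimated abundance with StringTie 1.3.3b against RefSeq transcripts (versions from the submitters' processing notes). They deposited an estimated count and an FPKM value for each gene and transcript in each library. Each deposited estimated count is a whole number, and how they were made is not given in the sources used here. The FPKM values deposited by the authors were used without further normalization.

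The members and lists were chosen with earlier results of these data known. Genes whose FPKM averaged at least 1 were tested, in the sense of compared, with a pseudocount of 1. With 1 library per line, no p-value was computed. For single values, Wilson's 95% interval for the gene's part of all counts was converted to FPKM, and exact Clopper-Pearson intervals were used for ratios of 2 counts. They cover counting error only, and a count of 0 was given a limit of 3 counts. Of 2 repeated symbols, the row with the larger value was kept. The named members were those beyond 2-fold, the highest and lowest of each complex, core subunits of complex I, all SDH genes, CYC1, UQCRFS1, UQCRC1, UQCRC2, CYCS, COX4I1, COX5A, COX5B, ATP5A1, ATP5B, the tissue-type paralogs, and the 5 with the largest transcript shift and the 5 farthest from their neighbors. Other members were named after their values were seen, to complete a complex, a paralog pair or an arm. The values of 1 standard subunit are not reported here, though it is in the counts and medians. From the lists, genes beyond 2-fold were named, at most 5 per list, besides NDUFAB1 and ATPIF1. Of the written symbols, those not listed under that name were left out. Positions are those of the deposited transcript table. Promoters came from a RefSeq table on GRCh38.p14.

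Alternatives were TMM scaling (edgeR 4.0.16 in R 4.3.3), TPM, centring, other pseudocounts, filters, folds and FPKM thresholds, transcript values, standard subunits alone, and shares from counts or without mitochondrially encoded and ribosomal protein genes. The calls, intervals and neighbor medians were tested on simulated data that held no spread between cultures, which checks the computation only. Python 3.11.15, numpy 2.4.6, pandas 2.3.3 and scipy 1.17.1 were used.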

Additional observations from a re-analysis of the deposited data

How the results depend on the processing

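Of 43 values recomputed under the alternatives, 27 stayed, 16 moved and 0 reversed. A count stayed within 1.5 times and a median or share within its counting error, which is narrow. Only the median difference has a sign, so the counts and shares among these values could not reverse. The members' median difference of −0.39 became −0.51 with TMM scaling, −0.22 in TPM, −0.51 after centring on the median of all genes, −0.27 with no filter on low values and −0.33 from the highest single transcript of each gene. At 1.5-fold, 7 members were higher and 31 lower, against 30.6% and 24% of all tested genes. At an FPKM of 50, 63 members passed in H2087 and 59 in H596, against 11.7% and 11.4% of tested genes. At 200, 17 and 9 passed, against 2.31% and 2.08%. The members' share in H2087 was 1.10% of the counts, 2.32% of the summed transcript values, and 2.94% without mitochondrially encoded and ribosomal protein genes. In H596 it was 0.878% of the counts and 2.43% without those genes. No paired analysis was possible because there is 1 library per line and the labels give no replicate numbers, and for the same reason no library could be left out. Depth was not the limit for the standard subunits, whose counting intervals were narrow, but it limited the tissue-type paralogs, and the missing replicates limit every difference between the lines.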
